A study of Caenorhabditis elegans with 2 samples.

Results

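The nuclear hormone receptor genes of Caenorhabditis elegans were examined for binding of CEH-100, a homeobox protein. The members were all protein-coding genes whose name begins with nhr in the WBcel235 annotation, 269 of 19973 protein-coding genes. The series held a single group of 2 biological replicates of whole young adults, 64 h of age, of strain RW12233, whose own ceh-100 gene on chromosome II carries a TY1::EGFP::3xFLAG insertion (allele st12233) made by CRISPR. The worms had been synchronised as starved L1 larvae after bleaching, and an anti-GFP antibody was used to pull down the tagged protein, per the labels. Every animal carried the tag and untagged worms were not analysed here, so no comparison of conditions was possible and all values describe 1 genotype at 1 age. Whole animals were used, so strong binding in few cells and weak binding in many cells cannot be told apart.

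Nuclear hormone receptors are transcription factors with a zinc-finger domain that binds DNA and a second domain that can bind small lipophilic molecules such as steroids, bile acids and fatty acids. Nematodes carry far more of them than insects or vertebrates do, and most worm receptors are thought to descend from a relative of vertebrate HNF4, with many recent copies on chromosome V. A smaller set has clear relatives across animals and acts in moulting, gonad and nervous system development, while others, such as NHR-49, adjust fat metabolism and the responses to diet, starvation and stress.

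A gene was counted as having a peak where the summit of a peak lay within 500 bp of any of its annotated transcript starts. The peak lists were those deposited by the authors for both replicates jointly: a conservative set of 1707 peaks and a second thresholded set of 1911 peaks, both limited by the irreproducible discovery rate (IDR, the estimated share of peaks that do not recur), and a ranked list that also keeps peaks under the threshold, 20827 of them on the 6 nuclear chromosomes. Signal is the peak caller's own enrichment value for a peak, has no unit and is not scaled between lists, so genes were compared only within a list and the replicates' values are set side by side. The lists hold no read counts, so the sequencing depth behind a peak is unknown.

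The sequences below are those on which the thresholded results turn, followed by the pair of highest ranked signal under the threshold among members on II to X whose peak counted for no other gene. Each comes from the WBcel235 genome (the same assembly as ce11), read 5′ to 3′ on the strand of the receptor gene, with capitals for the homeodomain core TAAT or its complement ATTA. The windows run 50 bases to either side of the summit, except that of nhr-47, where the summit is base 82, so that at most 30 untranslated bases are shown. The peak at nhr-49 on I (signal 70.4) met the other conditions and exceeded that of nhr-105 (66.91), but its window is not printed.
nhr-47, chrV:5505182-5505282, plus strand: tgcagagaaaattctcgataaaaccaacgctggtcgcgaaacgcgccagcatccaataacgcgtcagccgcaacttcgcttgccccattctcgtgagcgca
nhr-41, chrIV:1388251-1388351, plus strand: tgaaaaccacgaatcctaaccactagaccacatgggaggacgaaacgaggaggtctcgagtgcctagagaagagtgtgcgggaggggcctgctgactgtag
nhr-142 (strongest peak just outside 500 bp), chrV:5791015-5791115, minus strand: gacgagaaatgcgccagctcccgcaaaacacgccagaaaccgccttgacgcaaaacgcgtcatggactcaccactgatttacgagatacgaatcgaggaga
nhr-119 (highest signal under the threshold), chrII:2800962-2801062, minus strand: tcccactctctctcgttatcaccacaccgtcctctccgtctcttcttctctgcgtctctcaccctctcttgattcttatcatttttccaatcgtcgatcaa
nhr-105, chrIV:7049840-7049940, plus strand: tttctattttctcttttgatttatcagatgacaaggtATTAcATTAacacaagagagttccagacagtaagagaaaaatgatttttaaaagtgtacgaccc

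Of the 269 nuclear hormone receptor genes, 2 had a peak in the conservative set, nhr-47 and nhr-41, where 5.56% of all protein-coding genes had one. The members' share was 0.743% (95% exact Clopper-Pearson interval 0.0902% to 2.66%), against 5.62% of the other protein-coding genes (5.31% to 5.95%). The same 2 members had a peak in the second thresholded set, in which 6.10% of all protein-coding genes were called. These intervals cover counting error only, and related genes that lie side by side are not independent. The members were not tested as a set, so the shares are given as a description.

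The peak at nhr-47 spanned chrV:5505105-5505420, with its summit 10 bp downstream of the gene's start, in an untranslated exon. Its signal was 194.5 in the joint lists, rank 497 of 1707 in the conservative set, with a global IDR of 2.77e-05. The signal was 104.6 in replicate 1 and 94.42 in replicate 2, and both replicates' own thresholded lists held the peak. The start of dnj-19, which encodes a DnaJ cochaperone and is transcribed in the opposite direction, lay 406 bp from the same summit, so the peak counted for both genes. Of the 2 thresholded receptor genes, nhr-47 was the one with a peak in both replicates' thresholded lists.

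The peak at nhr-41, a relative of the vertebrate testicular receptors, spanned chrIV:1388143-1388458, with its summit in an intron 204 bp downstream of an internal annotated start. Its signal was 114.6, rank 1116 of 1707, with a global IDR of 0.00228. The signal was 46.49 in replicate 1, where the IDR of 0.023 missed the threshold of 0.01, and 71.05 in replicate 2, where the IDR was 0.00394. A tRNA gene (WBGene00023202, chrIV:1388216-1388287, minus strand) lay inside the same intron peak, 14 bp from the summit, and the opening bases of the sequence printed for nhr-41 belong to it. Without the peaks that lie within 250 bp of such small RNA genes (tRNA, rRNA, snRNA or snoRNA), nhr-47 was the 1 member with a thresholded peak, 0.372% of members against 5.18% of all protein-coding genes. With the 5′ end of each gene as its only start, 1 member again had a conservative peak, against 5.20% of all protein-coding genes.

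Each replicate also had a thresholded list of its own. Replicate 1 called 4.15% of all protein-coding genes and 1 receptor gene, nhr-47. Replicate 2 called 4.89% of all protein-coding genes and 3 receptor genes, nhr-47, nhr-41 and nhr-142. The extra peak, at nhr-142, spanned chrV:5790649-5790806 with its summit 144 bp upstream of the start, and had a signal of 86.56 and an IDR of 4.14e-05 in replicate 2. No peak overlapped it in replicate 1's ranked list or in the joint ranked lists.

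Several members lay just outside the distance used. The nearest was nhr-142 again, where a conservative summit lay 512 bp upstream in the intergenic stretch shared with F44E7.9, whose start was 165 bp away on the other side. That peak (chrV:5790914-5791195) had a signal of 974.8, rank 93 of 1707, with 474.5 in replicate 1 and 538 in replicate 2. It was the highest signal of any conservative peak within a receptor gene or 2000 bp upstream of one. Next came nhr-255 at 593 bp (signal 105.4, beside a tRNA gene), nhr-150 at 1451 bp (119.1, beside a tRNA gene inside its intron), nhr-114 at 1789 bp (88.91, within Y45G5AM.9, the gene that contains it) and nhr-247 at 1850 bp (205.7, intergenic). The windows of nhr-47 and nhr-142 shared 2 words of 8 or more letters in the same orientation, AACGCGTCA and GCGCCAGC, found by comparing the printed windows after they had been seen. On either strand the first occurred at 1.01% of the 1685 nuclear conservative summits and 0.168% of the 20827 nuclear ranked summits, and in 0.195% of promoters, taken as 301 bases from 250 before to 50 after each protein-coding gene's start. The second occurred at 2.73%, 0.547% and 0.581%. Other pairs of the printed windows also shared such words. The windows of nhr-47 and nhr-105 shared AGAGAAAA in the same orientation, which occurred at 3.32%, 2.35% and 10.2%. Those of nhr-119 and nhr-105 shared ATCATTTTTC in opposite orientation. A match is a description of letters and not of a binding site.

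Across gene bodies and the 2000 bp upstream of them, 9 receptor genes held 11 conservative summits. Outside the genes named above these were nhr-249 (136.8, intergenic), nhr-17 (144.2 and 16.7, in an intron) and nhr-119 (51.58 and 43.56, in an untranslated exon, 6378 and 6096 bp from its start), named here after their values were seen. Of the 11 summits, 5 (45.5%) lay within 250 bp of a tRNA gene, at nhr-41, nhr-150, nhr-255 and nhr-17, compared with 18.1% of all 1685 nuclear conservative summits beside a tRNA, rRNA, snRNA or snoRNA gene. A single tRNA gene accounts for both summits at nhr-17. In the ranked list, 3 of the 71 summits at receptor starts (4.23%, at nhr-41 and at nhr-193, likewise named afterwards) and 3.5% of all nuclear summits lay beside such a gene.

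The members were unevenly spread over the genome: 167 of them (62.1%) lay on chromosome V, which holds 25% of all protein-coding genes, with 33 on IV, 23 each on I and X, 15 on II and 8 on III. In the conservative set the peak of nhr-47 made 0.599% of the members on V (interval 0.0152% to 3.29%), against 3.83% of the other genes there (3.31% to 4.41%). V was also cut into 5 equal lengths. In the parts at its ends 0 of 85 members had a conservative peak, against 2% of the other genes. In the inner parts 1 of 82 members (1.22%) had one, against 4.83%. At the shares that other genes had on the same chromosomes, 12.5 members would have had a conservative peak, where 2 had one. For the second thresholded set that number was 13.3, again where 2 had one. Neither number takes account of position within a chromosome. Chromosome X was sparse for both groups, with 0 of 23 members and 0.739% of the other genes, so no difference was detectable there with so few members.

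**Figure D1:**
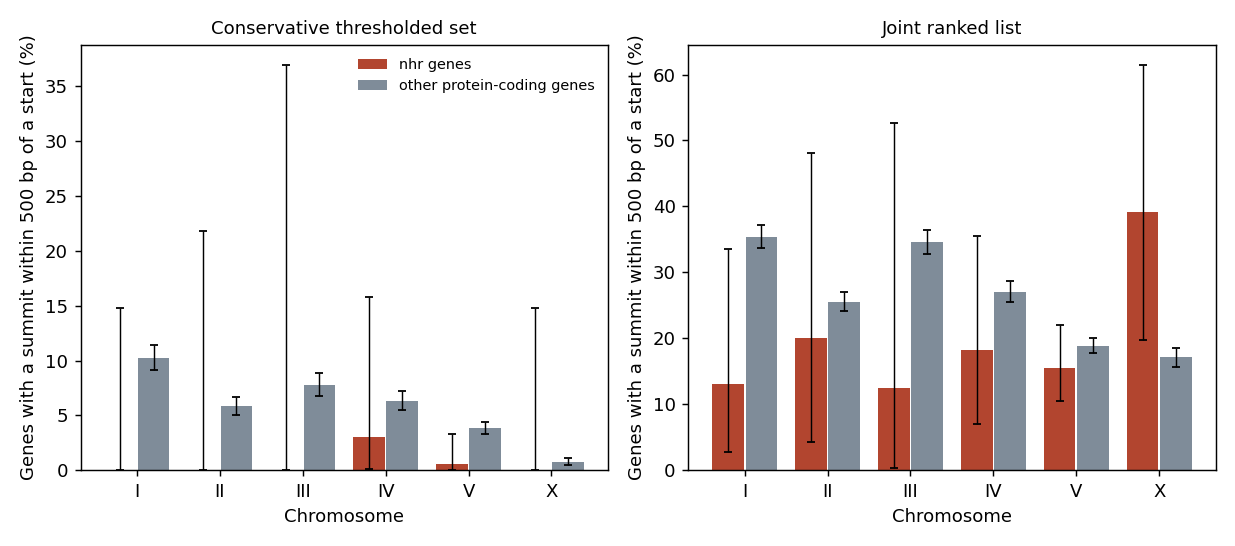
Share of genes with a summit within 500 bp of a start (percent) by chromosome, nhr genes in red beside the other protein-coding genes in grey, for the conservative set at left and the joint ranked list at right; lines are 95% exact intervals for counting error. On V the members stand at 0.599% and the other genes at 3.83% in the conservative set, and in the ranked list the members exceed the other genes on X alone.

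Conservative summits were also further from the members. The median distance from a receptor gene's start to the nearest conservative summit was 58411 bp, against 27000 bp for other protein-coding genes, and on V alone it was 89964 bp against 41184 bp. Within 10000 bp, 11.2% of the members and 27.1% of the other genes had a conservative summit. In the ranked list the medians were 3702 bp for the members and 2362 bp for the other genes, and on V alone 3702 bp and 3360 bp. Within 2000 bp, 37.2% of the members and 46.4% of the other genes had a ranked summit, and on V 37.1% and 38.7%.

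**Figure D2:**
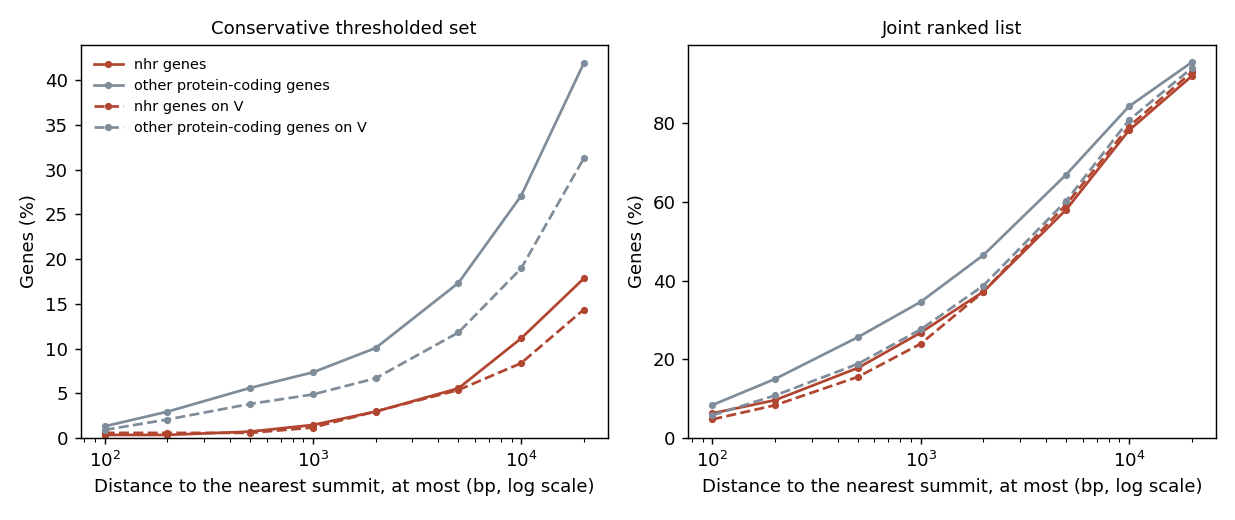
Percent of genes (vertical axis) whose nearest summit lies within the distance on the horizontal axis (bp, log scale), for nhr genes in red and other protein-coding genes in grey, with dashed lines for chromosome V. The conservative curves part, reaching 11.2% for nhr genes and 27.1% for other genes at 10000 bp, while the ranked curves on V run close together.

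The ranked list placed peaks at more members. Of the 269, 48 (17.8%, interval 13.5% to 22.95%) had a ranked summit within 500 bp, where 25.5% of all protein-coding genes did. At the shares of other genes on the same chromosomes, 59.1 members would have had one. The second joint ranked list gave 41 members (15.2%), beside 26.3% of all genes. Replicate 1's own ranked list gave 70 members (26.0%), beside 33.1% of all genes, and replicate 2's gave 45 (16.7%), beside 26.1%. The members' share was below that of all genes in each of these 4 lists.

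The gap was not the same on every chromosome. On V, 26 of 167 members (15.6%, interval 10.4% to 21.97%) had a ranked peak, against 18.9% of the other genes (17.8% to 20.01%). These intervals overlapped, but in the second ranked list they did not. There, 20 of 167 members (11.98%, interval 7.47% to 17.9%) had a peak, against 19.95% of the other genes (18.8% to 21.1%). In each replicate's own ranked list the intervals on V overlapped. In the first joint ranked list the gap on V lay in the inner parts of the chromosome. There, 12 of 82 members (14.6%) had a peak, against 20.7% of the other genes. In the parts at its ends, 14 of 85 members (16.5%) had one, against 15.6%. On I, 3 of 23 members (13.0%, interval 2.78% to 33.6%) had a ranked peak, against 35.4% of the other genes (33.7% to 37.2%). The second ranked list gave 21.7% of members on I against 36.4% of the other genes. Replicate 1's list gave 39.1% against 42.6%, and replicate 2's gave 13.0% against 37.0%. On X the order turned: 9 of 23 members (39.1%, interval 19.7% to 61.5%) had a ranked peak, against 17.1% of the other genes (15.7% to 18.6%). The excess on X was smaller in the second ranked list, with 26.1% of members (interval 10.2% to 48.4%) against 19.2% of other genes. In replicate 2's list it was also smaller, with 21.7% (interval 7.46% to 43.7%) against 17.1%. Both intervals held the other genes' share. None of the 9 ranked members on X reached the median signal of all genes with a ranked peak, 52.53, but the median of other genes on X was lower, at 44.66, and nhr-1 (51.3), nhr-28 (48.7) and nhr-35 (44.77) lay above it.

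Members with several starts more often had a ranked peak than those with 1 start. Any annotated start counted, so a gene with several starts had more windows in which a summit could fall. Of receptor genes with 2 or more annotated starts, 33 of 102 (32.4%) had a ranked peak, and of those with 1 start, 15 of 167 (8.98%) had one; among other genes the shares were 38.8% and 20.7%. More members than genes in general had 2 or more starts, 37.9% of members and 27.4% of all protein-coding genes, and on X 52.2% and 26.3%. On X, 7 of 12 members with several starts (58.3%) had a ranked peak, against 24.8% of such other genes. Of the members on X with 1 start, 2 of 11 (18.2%) had one, against 14.4%. With the 5′ end of each gene as its only start, 38 members (14.1%) had a ranked peak, against 23.1% of all protein-coding genes. On X that count gave 30.4% of members and 14.4% of the other genes. Fewer members had a start of another gene on the opposite strand within 1000 bp upstream, 6.69% of members and 17.7% of all genes. Among other genes, 14.5% of those with such a neighbour and 3.68% of those without one had a conservative peak. Of the 18 members with such a neighbour, 1 had a conservative peak, and of the 251 without one, 1 did.

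Members were also grouped by position, and the shares are read beside the 25.5% of all protein-coding genes with a ranked peak and the 5.56% with a conservative one. Joining receptor genes whose starts lay within 10000 bp gave 162 groups, of which 119 held a single gene. Of these lone genes 32 (26.9%) had a ranked peak and 2 had a conservative peak, while of the 150 genes beside another receptor gene 16 (10.7%) had a ranked peak and 0 a conservative one. The ranked share of the lone genes was thus close to that of all genes. The largest group, of 12 genes between positions 451451 and 494370 of chromosome V, had ranked peaks at nhr-123 and nhr-212, named after their values were seen, and no conservative peak. Near-identical copies can share reads, and how reads that map to several places were handled is not given in the sources used here; its part in these shares was not tested.

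Receptors were also counted by what is known of them, beside the 25.5% of all protein-coding genes with a ranked peak. Of 14 receptors with a relative in insects or vertebrates, 6 (42.9%, interval 17.7% to 71.1%) had a ranked peak, and of 17 receptors studied for metabolism or stress 8 (47.1%, interval 22.98% to 72.2%) did. Of the remaining 238 members, 34 (14.3%, interval 10.1% to 19.4%) had one. The share of all genes lies within the intervals of the first 2 classes and above that of the remaining members. In the conservative set, which called 5.56% of all genes, the counts were 1 of 14 (nhr-41), 0 of 17 and 1 of 238 (nhr-47).

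Among the conserved receptors, nhr-64, which belongs with the HNF4 relatives, had a ranked signal of 57.55 with 23.36 in replicate 1 and 33.17 in replicate 2. The ranked signals were 34.36 at nhr-23 (the ROR relative needed for moulting), 30.4 at nhr-14, 18.23 at nhr-48 and 5.755 at nhr-6 (the NR4A relative that acts in spermatheca development), all with a global IDR of 0.798, the highest value in the list. At nhr-23 neither replicate's ranked list had a peak that overlapped the joint peak. The first joint ranked list had no summit within 500 bp of nhr-25 (the SF-1 relative), nhr-67 (the tailless relative) or nhr-85 (the Rev-erb relative). The same held for nhr-91, nhr-8, nhr-69, nhr-111 and nhr-239. Replicate 1's own ranked list did hold summits within 500 bp of nhr-69 (signal 25.84) and nhr-25 (19.61).

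Among the metabolic receptors the highest signal was at nhr-49, which controls fatty acid desaturation and oxidation. Its peak (chrI:9869175-9869490) lay 318 bp upstream of a start and had a signal of 70.4, rank 2728 in the ranked list, with 33.47 in replicate 1 and 44.56 in replicate 2; its global IDR of 0.0419 missed the threshold. The peak at nhr-68, a regulator of the propionate shunt, had 64.39 (33.5 in replicate 1 and 25.31 in replicate 2), but the start of H12C20.7 was nearer to its summit, at 83 bp, than that of nhr-68, at 367 bp. Signals were 48.7 at nhr-28, 44.77 at nhr-35, 44.25 at nhr-114, 41.42 at nhr-88, 41.26 at nhr-57 (a gene induced in hypoxia) and 39.46 at nhr-86. In the first joint ranked list no peak was listed at nhr-80, the partner of nhr-49 in fatty acid desaturation. The same held for nhr-10, nhr-13, nhr-31, nhr-45, nhr-62, nhr-66, nhr-112 and nhr-176. The second joint ranked list did hold peaks at nhr-80 (signal 56.14), nhr-66 (44.52) and nhr-112 (41.19). Replicate 1's own ranked list held peaks at nhr-80 (signal 40), nhr-66, nhr-112 and nhr-176.

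**Figure D3:**
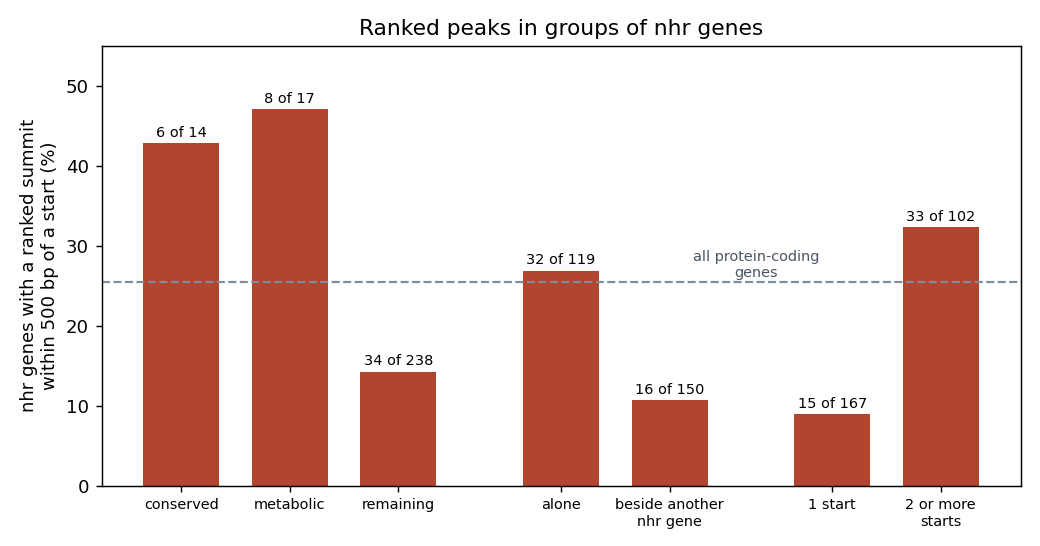
Share of nhr genes with a summit in the joint ranked list within 500 bp of a start (percent), by receptor class, by whether another nhr start lies within 10000 bp, and by number of annotated starts, with the counts above the bars and a dashed line for all protein-coding genes (25.5%). The 3 lowest bars are the genes with 1 start, those beside another nhr gene and the remaining receptors.

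Where members had a ranked peak, it was usually weak. The highest signal per gene ranged from 5.755 to 194.5 over the 48 members, with a median of 39.89, against a median of 52.53 over all 5100 protein-coding genes with a ranked peak. Signals under 39.73, where 25% of all genes with a ranked peak lay, were found at 24 of the 48 members. A further 15 members lay between 39.73 and 52.53 and 7 between 52.53 and 85.47, while nhr-47 and nhr-41 lay above 85.47 with the highest 25% of all genes. The median global IDR was 0.798 for the members and 0.438 for other genes. An IDR of at most 0.1 was reached at the strongest peak of 5 of the 48 members (10.4%), against 31.3% of the other genes with a ranked peak. These 5 were nhr-47, nhr-41, nhr-119, nhr-49 and nhr-105.

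By signal, nhr-119 came next with 75.4 (32.62 in replicate 1 and 49.46 in replicate 2, IDR 0.0578), 412 bp upstream of its start. After nhr-49, the next were nhr-101 with 69.36 and nhr-105 with 66.91 (37.53 and 29.72 in replicates 1 and 2). The summit counted for nhr-101 lay in an untranslated exon of pms-2, a DNA mismatch repair gene whose start was 75 bp away, while the start of nhr-101 was 498 bp away. Beyond nhr-68 and nhr-64, signals were 53.23 at nhr-147, 51.3 at nhr-1, 48.48 at nhr-256, 47.32 at nhr-5 and 45.62 at nhr-79, with nhr-28 and nhr-35 among them as given above. At nhr-147, nhr-1 and nhr-79 neither replicate's ranked list had a peak that overlapped the joint peak of that signal. Another joint ranked peak at nhr-1 (signal 48.49) did overlap peaks in replicate 1 (28.58) and replicate 2 (22.97).

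**Figure D4:**
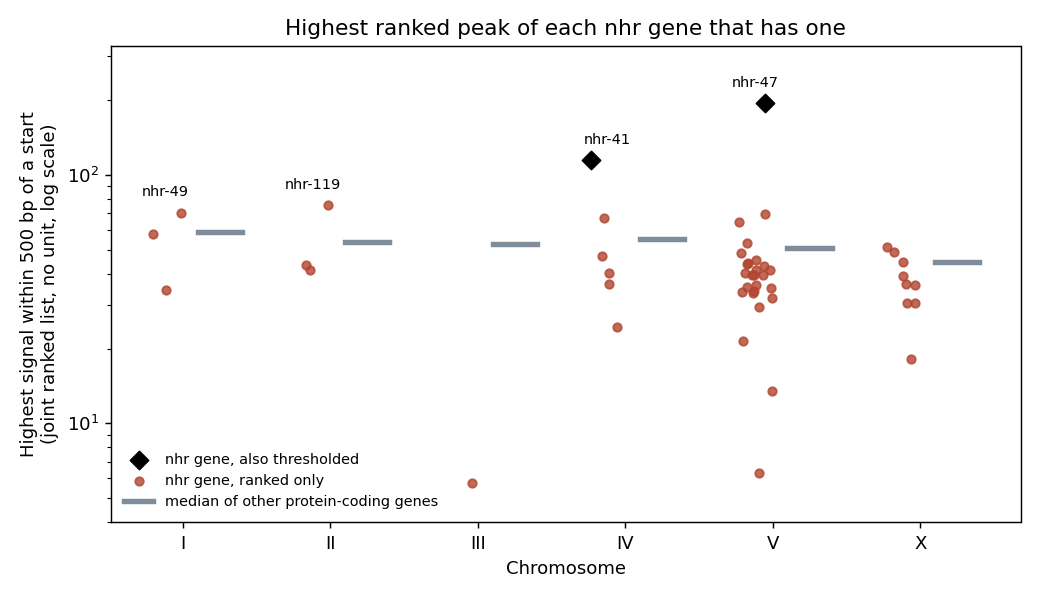
Highest signal within 500 bp of a start in the joint ranked list (no unit, log scale) for the 48 nhr genes that have a ranked peak, by chromosome; diamonds are genes that also have a conservative peak and grey bars are the median of the other protein-coding genes of that chromosome. Only nhr-47 (194.5) and nhr-41 (114.6) lie above 100, and all 9 members on X lie below 52.

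The replicates listed different members among the weak peaks. The 48 members had 71 ranked summits in all, 32 of them with 1 summit and nhr-114 with the most, 6. Of the 71 joint peaks, 29 overlapped a ranked peak in both replicates, and these fell on 24 distinct pairs of replicate peaks. Over the joint peaks that overlapped a ranked peak of the replicate, signals ran from 14.89 to 104.6 (median 21.31) in replicate 1's list and from 17.52 to 94.42 (median 22.91) in replicate 2's. A summit within 500 bp was listed in both replicates for 23 members, which is 32.9% of the 70 members in replicate 1's list and 51.1% of the 45 in replicate 2's, where the shares over all protein-coding genes were 54.1% and 68.6%.

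**Figure D5:**
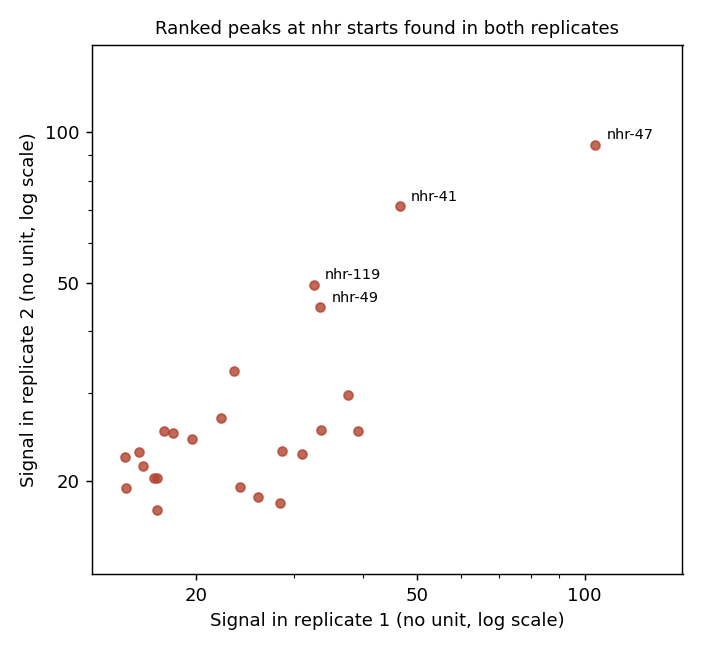
Signal in replicate 1 (horizontal, log scale, no unit) and in replicate 2 (vertical, log scale, no unit) at the 24 distinct pairs of ranked peaks at nhr starts found in both replicates; the lists are not scaled to each other. Peaks at nhr-47 and nhr-41 stand above the rest, most of which lie below 35 in both replicates.

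The members of lowest IDR in each replicate's ranked list were mostly different genes. In replicate 1 they were nhr-47, nhr-88 (signal 34.08, IDR 0.0117), nhr-1 (50.01, IDR 0.021), nhr-41 and nhr-135 (49.2, IDR 0.0632). No ranked peak of replicate 2 and no peak of the first joint ranked list overlapped those peaks at nhr-88, nhr-1 and nhr-135. The second joint ranked list held overlapping peaks at nhr-1 (signal 62.92) and nhr-88 (45.71). In replicate 2 they were nhr-142, nhr-47, nhr-41, nhr-119 (49.46, IDR 0.0289) and nhr-21 (25.17, IDR 0.187). The only genes in both lists of 5 were nhr-47 and nhr-41.

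A list of cofactor genes held a larger share of genes with a peak, and whether each one acts with the receptors was not tested. The list was chosen with earlier results of these data known, so its share is a description only. Small RNA genes and other genes beside these peaks are not given here. Of 29 annotated cofactor genes, most of them encoding Mediator subunits, 8 (27.6%, interval 12.7% to 47.2%) had a conservative peak, beside 5.56% of all protein-coding genes. They were mdt-18 (signal 690.4), hsp-90 (345.5, a chaperone of steroid receptors in vertebrates), sur-2 (305.4), mdt-26 (226.1), mdt-22 (173.6), mdt-9 (148.7), din-1 (122, a corepressor of DAF-12) and mdt-17 (108). At mdt-18, hsp-90 and din-1 the peak lay inside the gene. Its summit there was 124, 391 and 107 bp upstream of an internal annotated start. The second thresholded set held 7 of the cofactor genes named above and mdt-8 (84.1) in place of din-1. The peak at mdt-15, the Mediator subunit that works with NHR-49, had a ranked signal of 41.35 and was not thresholded. Genes named mdt entered the list by name alone.

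The remaining lists are small, and their exact intervals hold the 5.56% of all protein-coding genes with a conservative peak. The 5 receptors not named nhr had no thresholded peak (interval 0% to 52.2%): daf-12, the receptor for dafachronic acids, had a ranked signal of 24.82 and fax-1 of 22.95, and none was listed at unc-55, sex-1 or odr-7. Of 8 genes of dafachronic acid synthesis and transport, 0 were thresholded (interval 0% to 36.9%) and emb-8, a cytochrome P450 reductase, had a ranked signal of 84.3 with an IDR of 0.0108. Of 8 genes of fat metabolism chosen for their links to NHR-49 or NHR-80, 0 were thresholded (the same interval), and ranked signals were 75.18 at fat-6 and 69.02 at acdh-1. The homeobox genes named ceh, another transcription factor family, had 2 of 63 (3.17%, interval 0.387% to 11.0%) in the conservative set, ceh-38 (130.3) and ceh-43 (123.3), and 9 of 63 (14.3%, interval 6.75% to 25.4%) in the ranked list, where 25.5% of all genes were listed.

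The sequence under the members' summits was described by the homeodomain cores TAAT and TAATTA, counted on both strands; every TAATTA contains TAAT. Within 50 bases of the summit, neither thresholded member held TAAT, where 39.9% of the 943 conservative summits at protein-coding starts did and 2.33% held TAATTA. Of the 71 ranked summits at members, 39 (54.9%) held TAAT and 4 (5.63%) held TAATTA, beside 52.7% and 3.97% of the 6870 ranked summits at all protein-coding starts. The absence of these letters from the windows printed for nhr-47 and nhr-41 says nothing about the factor. In the 301 base promoters, TAATTA occurred in 10.8% of the members and 15.5% of all protein-coding genes, and the median GC content was 34.5% and 34.2%.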

How the data were processed

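Chromatin immunoprecipitation peaks of 2 biological replicates were taken as deposited, on ce11 per the labels. The authors' signal column gives the peak caller's enrichment per peak, and the ranked lists deposited by the authors give the −log10 of the global IDR, limited to 5. Peaks were called against a control alignment, per the deposited file lists; no source used here names the aligner or peak caller. The 2 per-sample columns of the joint ranked list carry no names and were not used; replicate values come from each replicate's own ranked list, by overlap. Summits were assigned to starts in Ensembl release 115 (WBcel235), mitochondrial peaks excluded, with Python 3.11.15, pandas 2.3.3 and scipy 1.17.1, and the assignment was tested on simulated data. Members and gene lists were chosen with earlier results of these data known. Named members are those thresholded, the 15 of highest ranked signal, both receptor classes, the 5 nearest beyond 500 bp and the 5 of lowest IDR per replicate; 2 named cofactors (daf-21, ncoa-1) were not in the annotation under those names. Shares carry 95% exact Clopper-Pearson intervals for counting error. Alternatives changed the window, the start, the assignment, the list, the IDR limit and the replicate.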

Additional observations from a re-analysis of the deposited data

How the results depend on the processing

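The conservative share of the members stayed between 0.372% and 1.49% over 14 alternatives, and the share in the second thresholded set between 0.372% and 1.49% over 2. In every setting that had a paired background, the members' share was below that of all protein-coding genes, in 14 of 14 settings for the conservative set, 3 of 3 for the second and 15 of 15 for the ranked list. The ranked share moved with the window (9.67% at 200 bp, 26.8% at 1000 bp), with the IDR limit (5.95% at 0.5, 1.86% at 0.1) and when groups of neighbouring receptor genes were counted (27.2%), and it ran from 16.7% to 26.0% in single replicates. The median signal was 44.25 in the second ranked list and 34.78 as a mean of a gene's peaks; in single replicates it was 22.85 to 23.92, over 45 and 70 members and in lists not scaled to the joint one (the cause was not tested). On V, the ranked share was 8.38% at 200 bp, 23.95% at 1000 bp and 11.98% in the second ranked list. In single replicates it ran from 15.6% to 21.6%. On X the ranked share ran from 21.7% to 47.8% over 6 alternatives, above the share of the other genes in each. In the second ranked list and in each replicate's own list, the members' interval on X held the other genes' share. The alternatives on V and X were chosen after seeing the data. No paired analysis was possible because there was 1 group. With 2 thresholded members, 1 gene decides any split of them; read depth is unknown, and peaks under the threshold recur less between replicates.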
